A study of Mus musculus with 18 samples.

Results

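The genes described here are 9 CC chemokines that macrophages make to attract monocytes and other leukocytes: Ccl2, Ccl3, Ccl4, Ccl5, Ccl6, Ccl7, Ccl8, Ccl9 and Ccl12. They were chosen by symbol, and all 9 were among the 24421 gene symbols of the count files. All 9 also passed the filter on low counts, which kept 10550 genes for testing. The data were bulk RNA-seq of synovial macrophages of adult C57BL/6 WT mice, sorted into LYVE1+CX3CR1+, MHCII+CD11c- and MHCII+CD11c+ subsets. Each subset was taken from untreated mice and from mice 8 h after an intravenous injection of immune complexes (IC) made of ovalbumin and antibody against it. Each of the 6 groups had 3 libraries, 18 in all, and each library held cells from the legs of several mice pooled before sorting, so that p-values measure the spread between these pools. Cells were sorted after the tissue was digested with collagenase. In bulk samples, fewer cells of a type and less RNA per cell cannot be told apart.

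Chemokines are small secreted proteins that bind G-protein-coupled receptors on leukocytes and steer their movement. In the joint, macrophages that sense immune complexes through Fcγ receptors are a known source of chemokines that draw monocytes and neutrophils out of the blood. The 9 members fall into 3 groups by family and role. Ccl6 and Ccl9 are mouse ligands of CCR1 that myeloid cells make without prior stimulation. Ccl2, Ccl7 and Ccl12 are monocyte chemoattractant proteins that act through CCR2, and Ccl8 is their relative, which in mice acts mainly through CCR8. Ccl3, Ccl4 and Ccl5 are inflammatory chemokines that attract monocytes and T cells, Ccl3 and Ccl5 in part through CCR1.

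All 9 genes lie on chromosome 11, in 2 clusters 1409 kb apart in RefSeq's GRCm38 annotation, the build (mm10) to which the reads were aligned. Ccl2 (chr11:82035577-82037452), Ccl7 (chr11:82045712-82047525), Ccl12 (chr11:82101845-82103399) and Ccl8 (chr11:82115185-82116799) form the first cluster, all on the plus strand. Ccl5 (chr11:83525778-83530518), Ccl9 (chr11:83572917-83578636), Ccl6 (chr11:83587886-83593087) and Ccl3 (chr11:83647843-83649378), all on the minus strand, and Ccl4 (chr11:83648624-83664683), on the plus strand, form the second. Ccl6 and Ccl9 are neighbours with 9.25 kb between them, and Ccl2 and Ccl7 lie 8.26 kb apart. The coding sequences of Ccl6 and Ccl9 were 64.6% identical, and those of Ccl3 and Ccl4 68.1% identical. No stretch of 50 bases was shared with another gene's transcript by 8 of the 9 members. For Ccl9, 109 of 2996 such stretches were shared with other genes. RefSeq's model of Ccl4 overlaps GENCODE's model of Ccl3 on the opposite strand by 732 bases. GENCODE's own model of Ccl4 starts at 83662584 and does not reach Ccl3. The noncoding gene E230016K23Rik lies over Ccl6 on the opposite strand, with at most 39 counts in any library. Gm17268, not used here, lies over the whole of Ccl2 on the opposite strand. The counter's strand setting was not given in the sources used here, so reads of these overlapping pairs cannot be told apart.

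The RefSeq promoter table (GRCm38.p6) held 5 of the 9 members, Ccl3, Ccl6, Ccl8, Ccl9 and Ccl12. The 250 bases before the gene start are shown for Ccl6 and Ccl9, the members that rose with IC in LYVE1+CX3CR1+ macrophages, and for Ccl8, which was at or near 0 there. Capitals mark matches to the motifs searched on both strands, namely the TATA box (TATAAA), AP-1 (TGANTCA), C/EBP (TTGCNNAA), ETS (GGAAGT), an IRF motif and kappa B.
Ccl6, chr11:83593088-83593337, minus strand: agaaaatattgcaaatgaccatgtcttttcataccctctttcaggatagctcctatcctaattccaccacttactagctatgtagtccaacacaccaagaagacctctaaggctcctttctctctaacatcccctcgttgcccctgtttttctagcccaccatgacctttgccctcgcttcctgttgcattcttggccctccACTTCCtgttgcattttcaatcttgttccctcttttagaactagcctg
Ccl9, chr11:83578637-83578886, minus strand: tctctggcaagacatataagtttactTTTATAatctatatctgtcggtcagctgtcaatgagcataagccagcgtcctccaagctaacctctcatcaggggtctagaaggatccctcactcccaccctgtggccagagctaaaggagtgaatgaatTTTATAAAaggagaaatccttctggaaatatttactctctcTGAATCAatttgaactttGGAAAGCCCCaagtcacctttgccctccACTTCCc
Ccl8, chr11:82114935-82115184, plus strand: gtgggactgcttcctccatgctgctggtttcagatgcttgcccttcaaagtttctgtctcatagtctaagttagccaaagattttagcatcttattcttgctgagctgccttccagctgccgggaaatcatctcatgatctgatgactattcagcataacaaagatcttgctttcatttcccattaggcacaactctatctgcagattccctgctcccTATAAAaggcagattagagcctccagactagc
The Ccl6 window held 1 match, the ETS letters on the reverse strand, starting 48 bases before the gene start. The same letters stood 7 bases before the start of Ccl9, inside a run of 13 bases that both windows share (gccctccacttcc). The Ccl9 window also held an AP-1 match, a kappa B match and 3 TATA matches, a pair of which overlap each other. The Ccl8 window held a TATA box starting 32 bases before the gene start and no other match. The windows of Ccl3 and Ccl12, not shown, held the ETS letters as well. They stood at -209 from the gene start in Ccl3 and at -228 and -14 in Ccl12, which also had a TATA box at -31. Neither Ccl3 nor Ccl12 was called with IC, so the ETS letters were not particular to the members that rose. Among 32851 windows of the same length, 19.7% held the ETS letters, 6.75% the AP-1 letters, 3.90% a kappa B match and 12.4% the TATA letters. A match describes the letters only and is not evidence of binding.

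Library totals lay between 245903 and 2172358 counts, and the smallest were the libraries of MHCII+CD11c- macrophages after IC numbered 1 and 2 (381217 and 245903 counts). Levels are given as CPM, the counts of a gene relative to its library's TMM-scaled total. The subset markers went with the labels. Lyve1 transcript stood at 2170.6 to 2563 CPM in untreated LYVE1+CX3CR1+ macrophages and at 329 to 882 CPM in the untreated MHCII+ subsets. H2-Aa, a class II gene, was at 2.69 to 3.37 CPM in the former, and Itgax, which encodes CD11c, was highest in MHCII+CD11c+ macrophages (240.0 to 304 CPM). After IC, class II genes fell and Itgax rose in MHCII+CD11c- macrophages, and in MHCII+CD11c+ macrophages Lyve1 (378 to 1096 CPM on average), Cx3cr1 (66.1 to 117 CPM) and Vsig4 (49.7 to 111 CPM), markers of the LYVE1+CX3CR1+ subset, rose. Hdc, a mast cell gene, rose in both MHCII+ subsets (11.5 to 59.7 CPM in MHCII+CD11c- and 5.86 to 36.3 CPM in MHCII+CD11c+ macrophages). The part of these shifts in the results was not tested. Markers of B cells and neutrophils were found in the MHCII+ subsets and are given below beside the results they move with. The 7 dendritic cell markers summed to 240 to 431 CPM in untreated MHCII+CD11c+ and 105 to 156 CPM in untreated MHCII+CD11c- libraries. In untreated LYVE1+CX3CR1+ libraries they summed to 3.77 to 9.40 CPM. Cd209a, of that list, fell with IC in both MHCII+ subsets. The part of dendritic cells in the results was not tested.

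Per transcript length, Ccl6 and Ccl9 made up most of the 9 members' summed level in every group. In untreated LYVE1+CX3CR1+ macrophages, Ccl6 stood at 235 ± 28.2 CPM per kb (SD, n = 3), Ccl9 at 198 ± 29.7 and Ccl2 at 139 ± 33.0. Ccl6 and Ccl9 did not differ beyond their spread there, and their order rests on the annotated lengths of 1440 and 3006 bases. Ccl7 (63.8 ± 12.4 CPM per kb), Ccl3 (42.9 ± 16.7) and Ccl4 (22.8 ± 5.36) followed, and Ccl12, Ccl5 and Ccl8 were at or near 0. In untreated MHCII+CD11c- macrophages, Ccl6 led with 994 ± 165 CPM per kb. Ccl2 (346 ± 131 CPM per kb) and Ccl9 (334 ± 29.0) came next and overlapped. In untreated MHCII+CD11c+ macrophages, Ccl6 reached 1266 ± 206 CPM per kb, ahead of Ccl9 (387 ± 34.3), Ccl2 (200.0 ± 31.2) and Ccl8 (166 ± 43.6), of which the last 2 were within their spread of each other. Ranked by mean CPM among the 10550 genes tested, Ccl6 had rank 39 in untreated MHCII+CD11c+ macrophages and rank 384 in untreated LYVE1+CX3CR1+ macrophages.

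Taken as shares of the 9 members' summed CPM per kb, Ccl6 and Ccl9 together held 61.6 ± 8.34% in untreated LYVE1+CX3CR1+ macrophages and 84.6 ± 5.69% after IC (SD, n = 3). Their share was 64.2 ± 8.14% before and 77.9 ± 5.77% after IC in MHCII+CD11c- macrophages, and 74.9 ± 4.64% and 78.9 ± 6.08% in MHCII+CD11c+ macrophages. The summed level of the 9 members was 705 ± 20.1 CPM per kb in untreated LYVE1+CX3CR1+ macrophages and 1413 ± 295 after IC. In untreated MHCII+CD11c- and MHCII+CD11c+ macrophages it was 2076 ± 245 and 2204 ± 203 CPM per kb, above every LYVE1+CX3CR1+ mean.

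**Figure D1:**
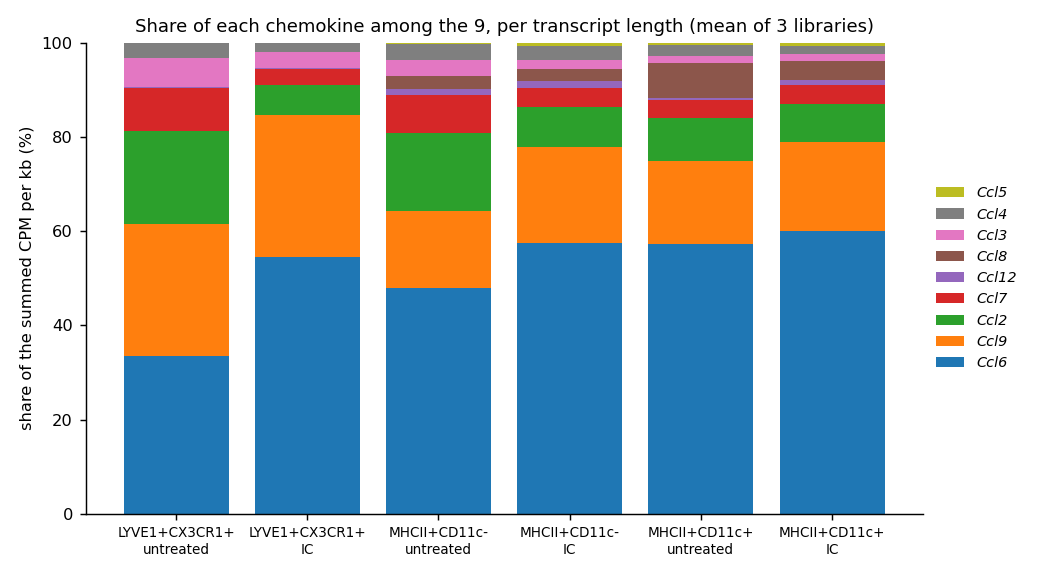
Mean share of each of the 9 chemokines in their summed CPM per kb of transcript (percent, vertical axis) in the 6 groups (horizontal axis, 3 libraries each). Ccl6 and Ccl9 took 61.6% of the sum in untreated LYVE1+CX3CR1+ macrophages and 84.6% after IC.

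To ask how the subsets differ without treatment, LYVE1+CX3CR1+ macrophages were compared with each MHCII+ subset. The fit did not pair subsets that may have been sorted from the same pool of mice. Of the 9 members, 7 were lower in LYVE1+CX3CR1+ than in MHCII+CD11c- macrophages and none was higher, where 11.4% of all genes tested differed (7.12% were lower). Against MHCII+CD11c+ macrophages, 5 of 9 were lower and none higher, where 21.8% of all genes differed (12.4% were lower). The median log2 difference of the 9 was -1.60 against MHCII+CD11c- macrophages, beside -0.02 over all genes, and -1.17 against MHCII+CD11c+ macrophages, beside -0.02.

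Ccl6 showed the clearest of these differences among the abundant members. It stood at 384, 305 and 328 CPM in the untreated LYVE1+CX3CR1+ libraries, at 1657, 1455 and 1184 CPM in MHCII+CD11c- and at 2155, 1734 and 1581 CPM in MHCII+CD11c+ macrophages. No library of the LYVE1+CX3CR1+ group reached the lowest of either MHCII+ group. The level was 4.22-fold lower than in MHCII+CD11c- macrophages (log2 difference -2.08, SE 0.21, adjusted p = 9.09e-08, edgeR quasi-likelihood test with Benjamini-Hochberg adjustment) and 5.38-fold lower than in MHCII+CD11c+ macrophages (-2.43, SE 0.21, adjusted p = 2.66e-09). Ccl9 differed less. Its values were 699, 553 and 537 CPM in LYVE1+CX3CR1+, 1099, 985 and 928 CPM in MHCII+CD11c- and 1231, 1216 and 1046 CPM in MHCII+CD11c+ macrophages. These were 1.68-fold (adjusted p = 8.95e-03) and 1.95-fold (adjusted p = 3.91e-04) differences, the first of which was lost without the third LYVE1+CX3CR1+ library (adjusted p = 0.0574).

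Among the monocyte chemoattractants, Ccl8 was not detected in LYVE1+CX3CR1+ macrophages. It had 0 counts in all 3 untreated LYVE1+CX3CR1+ libraries, 36.0, 35.4 and 21.5 CPM in MHCII+CD11c- and 71.5, 110.4 and 72.3 CPM in MHCII+CD11c+ macrophages. Set against a floor of 3 counts per library, it was at least 16.8-fold higher in the MHCII+CD11c- subset (adjusted p = 4.59e-07) and at least 46.1-fold higher in the MHCII+CD11c+ subset (adjusted p = 1.33e-09). The floor, like the exact counting intervals given with ratios per read, covers counting error only and leaves out the spread between pools. Ccl12 had 6 counts in LYVE1+CX3CR1+ macrophages, all in library 2, against 33 in MHCII+CD11c- macrophages, a ratio of 10.2 per read (95% exact counting interval 4.23 to 29.8, adjusted p = 0.0214). This call was lost without any of 4 of the 6 libraries (MHCII+CD11c- library 2 or 3, LYVE1+CX3CR1+ library 1 or 3; adjusted p = 0.0614 to 0.108). Against the 18 counts in MHCII+CD11c+ macrophages, the adjusted p for Ccl12 was 0.384, and 0.0228 without LYVE1+CX3CR1+ library 2.

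Ccl2, the canonical monocyte attractant, was present in every library. It stood at 86.9, 140.4 and 111 CPM in LYVE1+CX3CR1+, 173, 386 and 284 CPM in MHCII+CD11c- and 141, 191 and 156 CPM in MHCII+CD11c+ macrophages. The MHCII+CD11c- libraries were the highest and the most spread. Ccl2 was 2.49-fold lower in LYVE1+CX3CR1+ than in MHCII+CD11c- macrophages (log2 difference -1.32, SE 0.27, adjusted p = 1.53e-03), and against MHCII+CD11c+ macrophages the log2 difference was -0.52 (SE 0.27, adjusted p = 0.182). That last comparison passed the threshold when only the libraries compared were fitted (adjusted p = 0.0383). Ccl7, which shares CCR2 with Ccl2, was at 39.8, 57.7 and 56.0 CPM in LYVE1+CX3CR1+, 99.99, 186 and 127 CPM in MHCII+CD11c- and 57.8, 68.4 and 77.2 CPM in MHCII+CD11c+ macrophages. It was 2.67-fold lower in LYVE1+CX3CR1+ than in MHCII+CD11c- macrophages (adjusted p = 1.23e-03), with a log2 difference of -0.40 (SE 0.28, adjusted p = 0.365) against MHCII+CD11c+ macrophages. The summed level of 10 genes that respond to tissue digestion was 15268 to 18225 CPM in untreated LYVE1+CX3CR1+, 20751 to 22248 CPM in MHCII+CD11c- and 14957 to 18001 CPM in MHCII+CD11c+ libraries, and its part in the Ccl2 and Ccl7 results, here and between the MHCII+ subsets, was not tested.

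In the group of Ccl3, Ccl4 and Ccl5, Ccl4 was lower in LYVE1+CX3CR1+ macrophages than in both MHCII+ subsets. It stood at 15.5, 11.3 and 18.3 CPM in LYVE1+CX3CR1+, 51.2, 45.2 and 41.9 CPM in MHCII+CD11c- and 29.9, 34.8 and 37.6 CPM in MHCII+CD11c+ macrophages. The groups did not overlap, and the difference was 3.04-fold against MHCII+CD11c- (adjusted p = 4.05e-03) and 2.25-fold against MHCII+CD11c+ macrophages (adjusted p = 0.0172). The second was lost without MHCII+CD11c+ library 3 (adjusted p = 0.0643) or LYVE1+CX3CR1+ library 2 (0.0948). B cell markers moved the same way. Ms4a1 stood at 0 to 0.538 CPM in untreated LYVE1+CX3CR1+, 16.8 to 28.9 CPM in MHCII+CD11c+ and 56.2 to 74.4 CPM in MHCII+CD11c- libraries. Cd79a stood at 0 to 1.08, 21.5 to 35.7 and 66.0 to 123 CPM in the same order, and Cd79b at 0, 7.89 to 23.1 and 20.4 to 53.8 CPM. Their part in the Ccl4 result was not tested. Ccl3 did not pass the test in either comparison (adjusted p = 0.296 and 0.454), with 19.5 to 45.1 CPM in LYVE1+CX3CR1+, 43.0 to 74.6 CPM in MHCII+CD11c- and 15.8 to 32.2 CPM in MHCII+CD11c+ macrophages.

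Ccl5, a chemokine best known from T cells, had 0, 1 and 0 counts in the untreated LYVE1+CX3CR1+ libraries, 0, 5 and 2 counts in MHCII+CD11c- and 13, 5 and 16 counts in MHCII+CD11c+ libraries. Per read it was 30.5 times as frequent in MHCII+CD11c+ as in LYVE1+CX3CR1+ macrophages (95% exact counting interval 5.12 to 1241, adjusted p = 7.98e-03), a call lost without LYVE1+CX3CR1+ library 3 (adjusted p = 0.0542). Of the 11 T and NK cell markers in the files, 7 had no count in untreated MHCII+CD11c+ macrophages, among them Cd3d, Cd3e and Cd3g, and the list summed to 82.2 to 111 CPM there, nearly all of it Cd2 (98.5 of 100.4 CPM on average), against 5.92 to 12.5 CPM in LYVE1+CX3CR1+ macrophages. Its part in the Ccl5 result was not tested.

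Between the untreated MHCII+ subsets, 2 of 9 members differed, beside 3.49% of all genes tested. Ccl8 was 2.74-fold higher in MHCII+CD11c+ than in MHCII+CD11c- macrophages (log2 difference 1.45, SE 0.37, adjusted p = 0.0253), and Ccl7 was 2.02-fold lower (-1.02, SE 0.28, adjusted p = 0.0389). Neither group overlapped the other for these genes. Both calls rested on single libraries. The Ccl7 call was lost without any library but MHCII+CD11c- library 1 (adjusted p = 0.0775 to 0.245), and that of Ccl8 without MHCII+CD11c+ library 2 or MHCII+CD11c- library 2 or 3 (adjusted p = 0.062 to 0.146). The values of Ccl2 (log2 difference -0.79, SE 0.26, adjusted p = 0.103) and Ccl3 (-1.22, SE 0.41, adjusted p = 0.105) missed the threshold, as did those of the other members. Without a filter on low counts, Ccl2 and Ccl3 passed it too (adjusted p = 9.71e-03 and 0.0168). Ccl2 also passed with 1 surrogate variable (0.0379) and without MHCII+CD11c- library 1 (0.0204), and Ccl3 with only the libraries compared (0.0490).

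**Figure D2:**
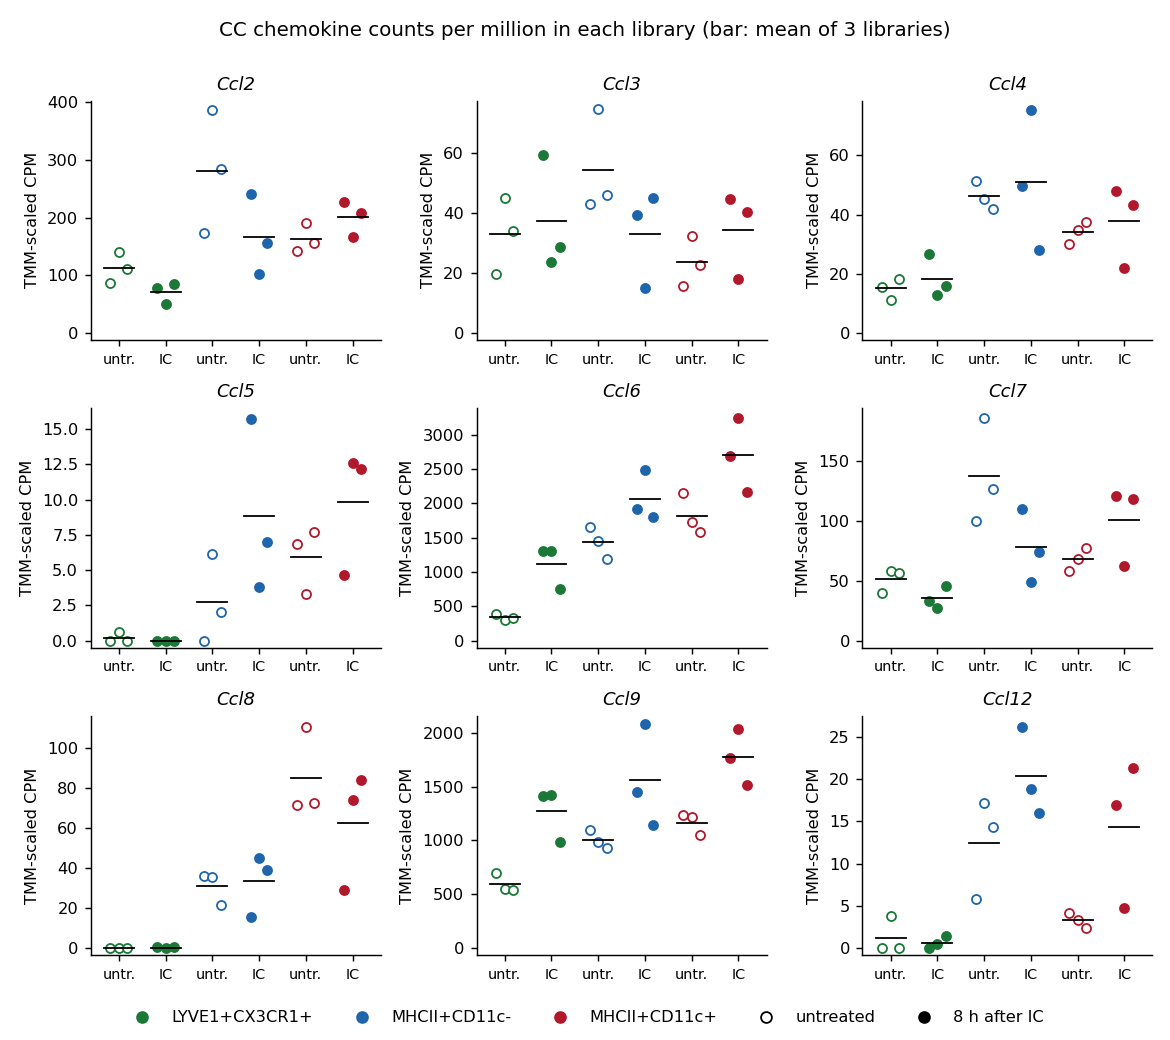
TMM-scaled CPM of each chemokine (vertical axis, linear, own scale per panel) in the 18 libraries, grouped on the horizontal axis by subset and treatment. Open points are untreated and filled points 8 h after IC, and bars are means of 3 libraries. Ccl6 rose from 305 to 384 CPM to between 755 and 1309 CPM in LYVE1+CX3CR1+ macrophages, and Ccl8 was at or near 0 in that subset.

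The second question of the design was how each subset responded to circulating IC. In LYVE1+CX3CR1+ macrophages, 2 of 9 members passed the test, Ccl6 and Ccl9, both higher after IC, where 0.464% of all genes tested changed (0.246% were higher). Groups without overlap were found for 19.1% of all genes. Ccl6 went from 384, 305 and 328 CPM to 1307, 1309 and 755 CPM. All 3 IC libraries lay above all 3 untreated ones, and the third was the lowest of them. The rise was 3.31-fold (log2 fold change 1.73, SE 0.21, adjusted p = 4.84e-05), and it stayed between 1.61 and 1.95 on the log2 scale when any 1 library was left out. Ccl6 moved from rank 384 to rank 94 among the genes tested in this subset. Ccl9 went from 699, 553 and 537 CPM to 1412, 1420.1 and 982 CPM, again without overlap and again with the third library lowest. Its rise was 2.13-fold (log2 fold change 1.09, SE 0.19, adjusted p = 4.42e-03). Across the alternatives run, the adjusted p of the Ccl6 rise was between 1.58e-21 and 1.69e-03, and that of the Ccl9 rise between 3.26e-08 and 0.0487.

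Markers of neutrophils and monocytes were measured in the same libraries. The 9 neutrophil markers in the files summed to 18.9 to 24.8 CPM in untreated LYVE1+CX3CR1+ libraries and to 19.2, 158 and 28.3 CPM after IC. Ly6c2, a defining gene of classical monocytes, was at 0 in all untreated and in 2 of 3 IC libraries of this subset (2.40 CPM in the third), and Chil3 at 0 in all but IC library 2 (12.7 CPM). S100a8, Camp and Ngp, neutrophil genes, were at 0 in the untreated libraries. After IC all 9 neutrophil markers had counts in this subset, S100a8 at 1.13, 18.5 and 0.480 CPM. Hp, of the monocyte list, was likewise at 0 before IC and had counts after it. The summed level of all 8 monocyte markers was 3736 to 5746 CPM before and 5866 to 7515 CPM after IC, most of it Fn1 (4042 CPM on average before and 6071 CPM after IC), which macrophages also express. Vcan, of the same list, averaged 517 CPM before and 464 CPM after IC, more than in any MHCII+ group (12.0 to 131 CPM). No marker of the neutrophil or monocyte list passed the test in this subset, and the part of these cells in the Ccl6 and Ccl9 rises was not tested.

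In the MHCII+ subsets, every IC library had more Ccl6 and more Ccl9 than every untreated library of its subset, but neither gene passed the test. In MHCII+CD11c- macrophages edgeR called 0 of 9 members (4 at an unadjusted p under 0.05, 1 by DESeq2), beside 1.06% of all genes, and in MHCII+CD11c+ macrophages 0 of 9 (3 at an unadjusted p under 0.05, 0 by DESeq2), beside 0.673%. Groups without overlap were found for 14.2% and 18.5% of all genes in these comparisons. Ccl6 stood at 1914, 2485 and 1805 CPM in MHCII+CD11c- macrophages after IC (log2 fold change 0.53, SE 0.20, adjusted p = 0.199) and at 2690.3, 3242 and 2166 CPM in MHCII+CD11c+ macrophages after IC (0.57, SE 0.20, adjusted p = 0.263). Ccl9 was at 1451, 2078 and 1144 CPM in the former (0.63, SE 0.19, adjusted p = 0.112) and at 1762, 2034 and 1514 CPM in the latter (0.60, SE 0.19, adjusted p = 0.176). Other fits gave calls here. Ccl9 passed in MHCII+CD11c- macrophages with the Wald test of DESeq2 (adjusted p = 0.043), without the low-count filter (0.0171) and without IC library 3 (0.0375), and in MHCII+CD11c+ macrophages with 1 surrogate variable (0.0402), without the filter (0.0233) and when only the libraries compared were fitted (0.0229). Ccl6 passed in MHCII+CD11c+ macrophages without the filter (0.0369). Over all 9 members, 1 or 2 were called in these subsets under those settings. The 9 neutrophil markers summed to 770.3 to 1713 CPM before and 1438 to 3692 CPM after IC in MHCII+CD11c- macrophages, where none of them passed the test, and to 129 to 625 CPM before and 976 to 2186 CPM after IC in MHCII+CD11c+ macrophages, where Csf3r, Mmp8 and S100a8 rose. Of the 8 monocyte markers, Ms4a4c and Plac8 rose in the former and Hp, Plac8 and Vcan in the latter. Ly6c2 and Chil3 did not pass the test, but their groups did not overlap. Ly6c2 went from 3.06 to 12.8 CPM to between 22.6 and 26.0 CPM in MHCII+CD11c-, and from 0.657 to 4.73 CPM to between 13.4 and 15.4 CPM in MHCII+CD11c+ macrophages. Chil3 went from 18.3 to 106 CPM to between 126 and 256 CPM in the former. In the latter it went from 0 to 29.4 CPM to between 40.1 and 106 CPM. The part of these cells in the Ccl6 and Ccl9 values was not tested.

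**Figure D3:**
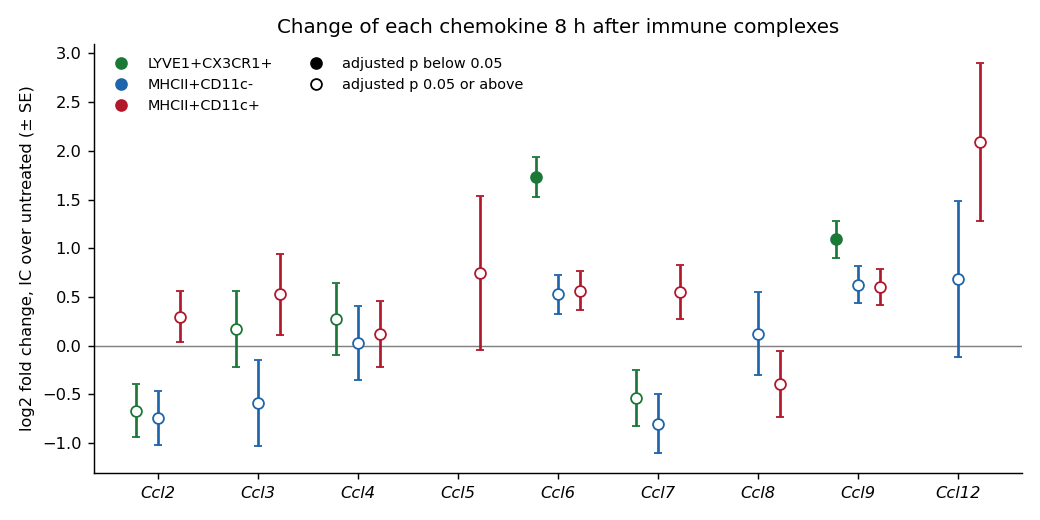
Log2 fold change of each chemokine 8 h after IC over untreated (vertical axis, with SE from edgeR, 3 against 3 libraries) by subset, for members with more than 10 counts in each group. Filled points pass the adjusted p threshold of 0.05: Ccl6 (1.73) and Ccl9 (1.09) in LYVE1+CX3CR1+ macrophages.

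The difference between the responses was tested by an interaction term. The Ccl6 response of LYVE1+CX3CR1+ macrophages exceeded that of MHCII+CD11c- macrophages by 1.20 on the log2 scale (SE 0.29, unadjusted p = 2.81e-04, adjusted p = 0.340) and that of MHCII+CD11c+ macrophages by 1.16 (SE 0.28, unadjusted p = 3.75e-04, adjusted p = 0.645). Neither passed edgeR's test over all genes, which called 0 genes in the first comparison (688 at an unadjusted p under 0.05) and 1 in the second, 0% and 0.00948% of all genes. The Wald test of DESeq2 called 13 and 12 genes, Ccl6 in both (adjusted p = 0.0359 and 0.0295), and edgeR without the low-count filter called it as well (4.96e-04 and 8.48e-04). Across the alternatives the adjusted p ran from 4.96e-04 to 0.697 in the first and from 8.48e-04 to 1 in the second, with the size between 1.02 and 1.42 whichever library was left out. The Ccl9 responses differed by 0.47 and 0.49, each with an SE of 0.27 (adjusted p = 0.784 and 1). As a description with no test, the Ccl9 to Ccl6 ratio of CPM lay between 1.64 and 1.82 in the untreated LYVE1+CX3CR1+ libraries, between 1.08 and 1.30 after IC, and between 0.571 and 0.836 in all 12 libraries of the MHCII+ subsets.

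The monocyte chemoattractants Ccl2 and Ccl7 did not pass the test in any subset after IC, and their estimates had different signs. In LYVE1+CX3CR1+ macrophages after IC, Ccl2 stood at 77.8, 50.1 and 85.0 CPM, each below every untreated library (log2 fold change -0.67, SE 0.27, adjusted p = 0.436), and Ccl7 at 33.3, 27.4 and 45.1 CPM (-0.53, SE 0.29, adjusted p = 0.648). In MHCII+CD11c- macrophages after IC, Ccl2 was at 241, 102 and 156 CPM (-0.74, SE 0.28, adjusted p = 0.193) and Ccl7 at 109.8, 48.9 and 74.1 CPM (-0.80, SE 0.30, adjusted p = 0.193). In MHCII+CD11c+ macrophages after IC, Ccl2 was at 227, 167 and 208 CPM (0.30, SE 0.26, adjusted p = 0.828) and Ccl7 at 120.3, 62.1 and 118 CPM (0.55, SE 0.28, adjusted p = 0.548). The Ccl7 response in MHCII+CD11c+ exceeded that in MHCII+CD11c- macrophages by 1.35 on the log2 scale (SE 0.41, unadjusted p = 2.90e-03, adjusted p = 0.701), and that of Ccl2 by 1.04 (SE 0.39, adjusted p = 0.773). Without the low-count filter the Ccl2 estimate in MHCII+CD11c- macrophages passed (adjusted p = 0.0459).

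The rest of the members showed no call with IC. Ccl12 had 8, 5 and 5 counts in untreated and 11, 6 and 35 counts in IC libraries of MHCII+CD11c+ macrophages, a log2 fold change of 2.09 with an SE of 0.81 (adjusted p = 0.342). In MHCII+CD11c- macrophages it had 5, 14 and 14 counts before and 10, 5 and 16 counts after IC (log2 fold change 0.68, SE 0.80, adjusted p = 0.748). Ccl8 stood at 15.7 to 45.2 CPM in MHCII+CD11c- and at 29.3 to 84.1 CPM in MHCII+CD11c+ macrophages after IC (adjusted p = 0.934 and 0.822), and had 1, 0 and 1 counts in LYVE1+CX3CR1+ macrophages. Ccl5 had 14 counts after and 7 before IC in MHCII+CD11c- macrophages (ratio per read 3.23, 95% exact counting interval 1.22 to 9.45, adjusted p = 0.452). By library these were 0, 5 and 2 counts before and 6, 1 and 7 after IC, a spread that the interval leaves out. Ccl5 had no count in any LYVE1+CX3CR1+ library after IC. Ccl3 and Ccl4 had adjusted p values between 0.575 and 0.989 in the 3 subsets. Their IC libraries ranged from 15.1 to 59.2 CPM and from 12.7 to 75.3 CPM.

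After IC, LYVE1+CX3CR1+ macrophages still had the lower levels. Against MHCII+CD11c- macrophages 7 of 9 members were lower (9.77% of all genes differed, 6.45% being lower), and against MHCII+CD11c+ macrophages again 7 of 9 (19.7% of all genes differed, 11.5% being lower). The Ccl6 difference was 1.84-fold against MHCII+CD11c- (adjusted p = 4.99e-03) and 2.40-fold against MHCII+CD11c+ macrophages (adjusted p = 3.90e-05), and the Ccl9 differences were below the threshold (log2 differences -0.28 and -0.48, both with SE 0.19, adjusted p = 0.397 and 0.0777). The second of these passed with 1 surrogate variable (adjusted p = 0.0211) and with only the libraries compared (0.0257). Ccl2 and Ccl7 were each 2.81-fold lower than in MHCII+CD11c+ macrophages (adjusted p = 2.17e-04 and 4.04e-04), and 2.36-fold and 2.22-fold lower than in MHCII+CD11c- macrophages (adjusted p = 5.40e-03 and 0.0185). Ccl8 had 2 counts in LYVE1+CX3CR1+ macrophages after IC against 57 and 251, ratios per read of 99.6 (26.3 to 842) and 203 (55.5 to 1683; 95% exact counting intervals). Ccl12 had 4 against 31 and 52 counts (ratios 27.1, 9.57 to 106, and 21.0, 7.73 to 80.0), and Ccl5, at 0, was at least 5.61-fold and 6.24-fold higher in the MHCII+ subsets.

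The calls against MHCII+CD11c- macrophages after IC varied with the fit. With only the libraries compared, 3 members were called. Ccl4, Ccl6 and Ccl7 did not pass there (adjusted p = 0.116, 0.0540 and 0.0700), and Ccl5 was not tested, being under the low-count filter. Leaving out the shallow IC libraries 1 and 2 of that subset left 1 library in the group, so only sizes are given. The log2 difference was then -0.65 for Ccl6, -1.10 for Ccl2, -1.03 for Ccl7 and -0.58 for Ccl4. With all libraries these were -0.88, -1.24, -1.15 and -1.35. Leaving out 1 library at a time ended the call of Ccl2 (without MHCII+CD11c- library 1, adjusted p = 0.0686, or LYVE1+CX3CR1+ library 2, 0.0549), of Ccl7 (without MHCII+CD11c- library 1 or LYVE1+CX3CR1+ library 1 or 2, 0.0712 to 0.133) and of Ccl4 (without MHCII+CD11c- library 1 or 2 or LYVE1+CX3CR1+ library 2 or 3, 0.0697 to 0.131). Against MHCII+CD11c+ macrophages, the Ccl4 call (2.03-fold, adjusted p = 0.0434) was lost without library 1 or 3 of that subset or library 2 or 3 of LYVE1+CX3CR1+ (0.138 to 0.212). The B cell marker Ms4a1 was at 54.1 to 151 CPM in MHCII+CD11c- and 18.9 to 24.4 CPM in MHCII+CD11c+ libraries after IC and at 0 in LYVE1+CX3CR1+ libraries, Cd79a at 52.7 to 103, 23.1 to 39.6 and 0 to 2.11 CPM in that order, and Cd79b at 38.1 to 86.6, 13.9 to 24.4 and 0 CPM. Their part in the Ccl4 result was not tested. Between the MHCII+ subsets after IC, edgeR called 0 of 9 members (1 at an unadjusted p under 0.05, 0 by DESeq2), beside 2.84% of all genes.

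**Figure D4:**
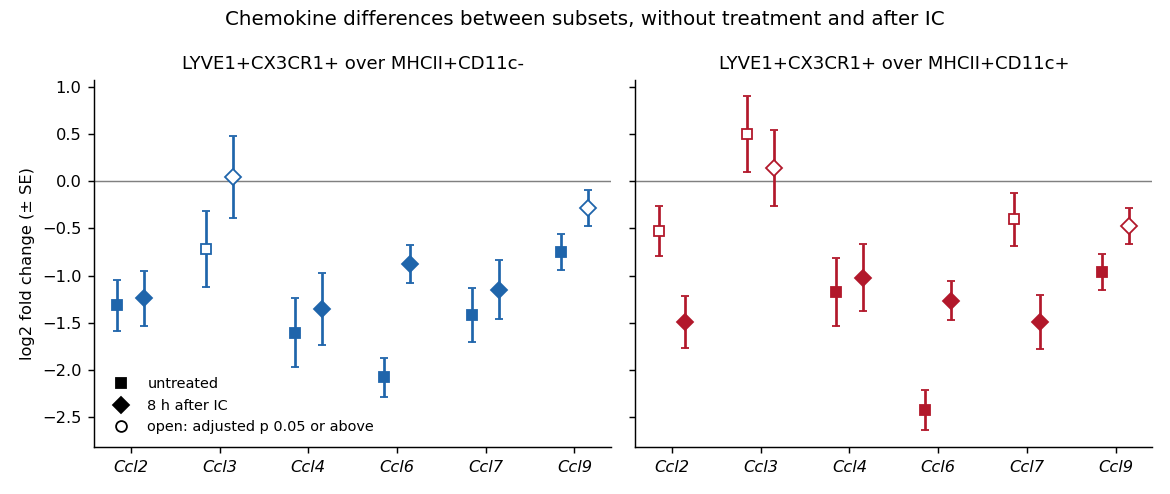
Log2 difference of LYVE1+CX3CR1+ macrophages from MHCII+CD11c- (left) and MHCII+CD11c+ macrophages (right), with SE from edgeR, for the 6 members with enough counts in every group. Squares are untreated and diamonds 8 h after IC. The Ccl6 difference from MHCII+CD11c- macrophages was -2.08 before and -0.88 after IC.

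Across the 18 libraries, Ccl2 and Ccl7 followed each other and Ccl6 and Ccl9 did so too. As a description over libraries that share groups, the gene most like Ccl2 in log2 CPM among 8835 abundant genes was Ccl7 (Pearson r = 0.964), and the gene most like Ccl9 was Ccl6 (r = 0.916). The Ccl7 to Ccl2 ratio of CPM lay between 0.359 and 0.577 in all 18 libraries, while Ccl2 itself ranged from 50.1 to 386 CPM. Once each group's mean was taken away, the deviations of Ccl2 and Ccl7 still went together (r = 0.883, n = 18), as did those of Ccl6 and Ccl9 (r = 0.873). The deviations of the neighbours Ccl3 and Ccl4 had r = 0.106, and those of Ccl8 and Ccl12 r = -0.252. The signs did not follow the clusters. Ccl6 and Ccl7, of different clusters, deviated in opposite directions (r = -0.701), but Ccl2 and Ccl3, also of different clusters, deviated together (r = 0.757). Ccl3 and Ccl9, of the same cluster, had r = -0.537. The genes nearest to Ccl3 were Atf3, Jun and Fos (r = 0.879, 0.847 and 0.803), immediate early genes that also respond to tissue digestion. The deviations of Ccl3, Ccl7 and Ccl2 went with the summed level of 10 such dissociation genes (r = 0.849, 0.720 and 0.710), and those of Ccl6 and Ccl9 did not (r = -0.315 and -0.435). In untreated libraries that sum, like the mean levels of these 3 genes, was highest in MHCII+CD11c- macrophages. After IC it was 18010 to 24559 CPM in LYVE1+CX3CR1+, 15547 to 22738 CPM in MHCII+CD11c- and 16547 to 20692 CPM in MHCII+CD11c+ libraries. With IC, none of its 10 genes passed the test in any subset. Its part in the Ccl2, Ccl3 and Ccl7 values was not tested.

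The nearest genes to Ccl4 were Ms4a1, Fcmr and Cd79b (r = 0.879, 0.856 and 0.855), which are expressed by B cells. Those nearest to Ccl6 were Coro1a, Il1rn and Rpl7a (r = 0.936, 0.934 and 0.924), and to Ccl8 Nup210, Plbd1 and Krt80 (r = 0.979, 0.978 and 0.973). For Ccl5 they were Cfb, Btg1 and Mmp19 (r = 0.875, 0.860 and 0.858), and for Ccl12 Ablim1, Parvg and H3f3b (r = 0.917, 0.889 and 0.885), with few counts behind both members. After Ccl7, Ccl2 was nearest to Nlrc5 and Map3k1 (r = 0.886 and 0.872), and after Ccl2, Ccl7 to Lpp and Nlrc5 (both r = 0.858). After Ccl6, Ccl9 was nearest to Eif5a and Eif4a1 (r = 0.888 and 0.887).

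**Figure D5:**
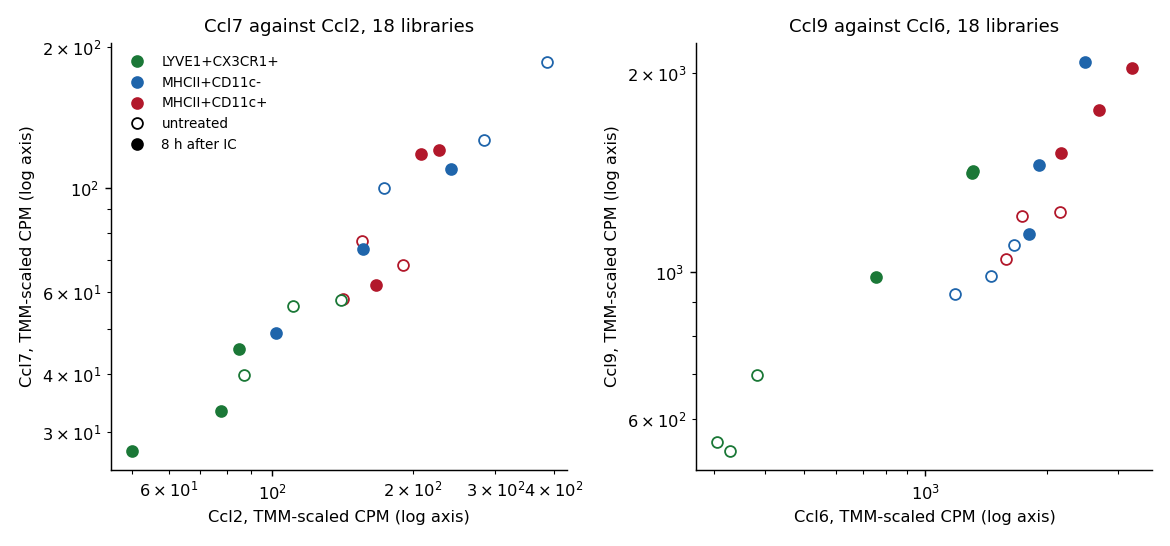
Ccl7 against Ccl2 (left) and Ccl9 against Ccl6 (right) in TMM-scaled CPM, both axes logarithmic, 1 point per library, coloured by subset and filled after IC. Ccl7 kept to 0.359 to 0.577 of Ccl2 in all 18 libraries, and the untreated LYVE1+CX3CR1+ libraries stand apart with more Ccl9 than Ccl6.

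Receptors of these chemokines differed between the subsets. Untreated LYVE1+CX3CR1+ macrophages had less Ccr2 than MHCII+CD11c- macrophages (27.8 against 566 CPM, log2 difference -4.34, SE 0.29, adjusted p = 5.28e-11) and more Ccr1 (227 against 131 CPM, 0.79, SE 0.24, adjusted p = 0.0329). Ccr7, a receptor of migrating dendritic cells, was at 0 in all LYVE1+CX3CR1+ libraries and averaged 39.9 CPM in untreated MHCII+CD11c- macrophages. Against MHCII+CD11c+ macrophages, Ccr1 was likewise higher, and Ccr2, Ccr7 and Ccrl2 lower. With IC, none of Ccr1, Ccr2, Ccr7 and Ccrl2 passed edgeR's test in any subset (adjusted p = 0.163 to 1).

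Of the 11 other CC chemokines listed, 3 were tested. Ccl24, an eosinophil attractant, was lower in LYVE1+CX3CR1+ macrophages than in both MHCII+ subsets (42.4 CPM untreated, against 181 and 117 CPM, adjusted p = 1.39e-06 and 5.27e-05). Ccl17 and Ccl22, ligands of CCR4, were at 67.0 and 61.8 CPM in untreated MHCII+CD11c+ macrophages, at 0 in LYVE1+CX3CR1+ macrophages and at 0 and 0.341 CPM in MHCII+CD11c- macrophages. With IC, edgeR called none of the 3 (0, 1 and 2 at an unadjusted p under 0.05), beside 0.464%, 1.06% and 0.673% of all genes.

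Of 38 regulators of inflammatory transcription, all of them tested, edgeR called 0 with IC in LYVE1+CX3CR1+ macrophages (4 at an unadjusted p under 0.05). It called Irf7 alone in MHCII+CD11c- (log2 fold change 1.34, SE 0.32, adjusted p = 0.0355) and MHCII+CD11c+ macrophages (1.42, SE 0.29, adjusted p = 0.0171). Over all genes, 0.464%, 1.06% and 0.673% were called in these comparisons. At such shares, few or no calls in lists of this size are not a result about the lists. Of 17 tested cytokines and receptors that can induce chemokines, Il1b alone was called, rising from 26.9 ± 13.8 to 83.2 ± 38.6 CPM in LYVE1+CX3CR1+ macrophages (SD, n = 3, adjusted p = 0.0452) and from 148 ± 38.5 to 462 ± 204 CPM in MHCII+CD11c- macrophages (adjusted p = 0.0121). It stayed lower in LYVE1+CX3CR1+ than in both MHCII+ subsets before and after IC.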

How the data were processed

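Total RNA of sorted synovial macrophages was sequenced (Takara SMARTer stranded pico kit, paired reads). The deposited values are raw read counts per gene symbol, which the authors made with FastQC, Trim Galore, HISAT2 (mm10) and featureCounts; versions, annotation and strand setting are not given in the sources used here. Genes past edgeR's filterByExpr (minimum count 10, minimum total 15) were TMM-scaled and tested with edgeR 4.0.16 (R 4.3.3, quasi-likelihood, all 18 libraries in 6 groups), with Benjamini-Hochberg adjustment over 10550 genes and a threshold of 0.05. The test was also run on simulated counts with the same spread for all genes, which cannot vouch for calls that rest on single libraries. Library totals were 245903 to 2172358 counts. Alternatives were DESeq2 1.42.0, its size factors, no filter, 1 surrogate variable (sva 3.50.0), only the libraries compared, replicate blocks, and leaving out libraries; 2 more (both shallow libraries left out, Rn45s left out) were chosen after seeing the data. No replicates were identical. CPM per kb used GENCODE transcript lengths. The text names the 9 members, the called genes of the lists, and per member the 3 genes with the highest correlation. Members and lists were chosen with earlier results of these data known. Fcgr2b-/- libraries were not analysed here. Some listed genes are not reported here.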

Additional observations from a re-analysis of the deposited data

How the results depend on the processing

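The rises of Ccl6 and Ccl9 in LYVE1+CX3CR1+ macrophages, and the lower Ccl6 of that subset without treatment, kept their direction and call under every alternative run. Between the untreated MHCII+ subsets, 4 members were called without the low-count filter, 4 with pools of mice as a block (Ccl2 and Ccl3 being added, adjusted p = 0.0175 and 0.0167), and 0 to 3 when 1 library was left out. With IC in MHCII+CD11c- macrophages, DESeq2 called 1, the fit without the filter 2, and leaving out 1 library 0 to 1. With IC in MHCII+CD11c+ macrophages, 1 surrogate variable gave 1, no filter 2 and only the libraries compared 1. After IC, 4 to 7 members differed between LYVE1+CX3CR1+ and MHCII+CD11c- macrophages without 1 library. With only the libraries compared, 3 differed, and Ccl5 was not tested there. For the difference in response from MHCII+CD11c- macrophages, DESeq2 and no filter each called 1, and for that from MHCII+CD11c+ macrophages DESeq2, no filter and the pool block each called 1. Calls over all genes moved with the fit too. With IC in MHCII+CD11c- macrophages edgeR called 112 genes and DESeq2 270, and between the untreated MHCII+ subsets 368 and 541. Shares over all genes under the other fits are not given here. Counts of members under alternative fits, here and below, are therefore not results about the members alone. The cause of these changes was not tested. Fits that leave libraries out also hold fewer samples.

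Some differences that passed no test changed sign. Ccl4 with IC in MHCII+CD11c- macrophages became -0.15 with 1 surrogate variable and -0.70 without both shallow libraries. Ccl3 between LYVE1+CX3CR1+ and MHCII+CD11c- macrophages after IC became -0.043 and -0.25 under the same settings, and Ccl9 there became 0.19 without both shallow libraries. Ccl4 between the MHCII+ subsets after IC became 0.40 without them. The difference in Ccl9 response between the MHCII+ subsets became 0.13 with 1 surrogate variable, 0.00154 with the pool block and 0.42 without both shallow libraries.

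Leaving out 1 library turned the sign of further differences that passed no test, with these ranges on the log2 scale. For IC in LYVE1+CX3CR1+ macrophages they were -0.31 to 0.46 for Ccl3 and -0.069 to 0.48 for Ccl4. For IC in MHCII+CD11c- macrophages they were -0.33 to 0.39 for Ccl4 and -0.13 to 0.42 for Ccl8, and in MHCII+CD11c+ macrophages -0.050 to 0.39 for Ccl4. After IC, Ccl3 ranged from -0.43 to 0.41 between LYVE1+CX3CR1+ and MHCII+CD11c- macrophages and from -0.32 to 0.41 between LYVE1+CX3CR1+ and MHCII+CD11c+ macrophages. Between the MHCII+ subsets after IC, the ranges were -0.33 to 0.24 for Ccl3, -0.72 to 0.029 for Ccl4 and -0.058 to 0.75 for Ccl5. Differences in response ranged from -0.22 to 0.40 for Ccl2 and from -0.00266 to 0.55 for Ccl7 (LYVE1+CX3CR1+ minus MHCII+CD11c-), and from -0.12 to 0.20 for Ccl6 and -0.20 to 0.25 for Ccl9 (MHCII+CD11c+ minus MHCII+CD11c-).

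Libraries of different groups share replicate numbers. Deviations from the group means correlated between same-numbered libraries of different subsets at -0.0455 to 0.132, and only 1 of 18 pairs was over 0.1, so the numbers were treated as names. Yet 11 of 18 libraries correlated best with their own number in both other subsets, a hint that the numbers mark shared pools. The labels do not state this, but cells were pooled before sorting, so subsets of the same pool would be paired. The main fit left out any such pairing, and fits with a block are given as alternatives. With the replicate block, LYVE1+CX3CR1+ and MHCII+CD11c+ macrophages after IC differed in 8 members, Ccl9 being added (adjusted p = 0.0252), and the other counts of members called were 7, 5, 2, 2, 0, 0, 7 and 0 in the order untreated, IC response and after IC. With pools as a block, Ccl2 (adjusted p = 0.0317) was added between untreated LYVE1+CX3CR1+ and MHCII+CD11c+ macrophages, and Ccl9 (0.0101) after IC. Low counts limit the results of Ccl5, Ccl8 and Ccl12, which had fewer than 10 counts in total in both LYVE1+CX3CR1+ groups.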
